A study of Mus musculus with 15 samples.

Results

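The Wnt ligands, R-spondins, receptors, antagonists and first intracellular effectors were followed in mouse embryonic fibroblasts (MEFs) during treatment with adipogenic factors. The genes were chosen by symbol, as protein-coding genes named Wnt, Fzd, Sfrp, Dkk, Rspo, Lgr4 to Lgr6, Lrp5, Lrp6, Tcf7 and its relatives, Lef1, Axin1, Axin2, Ctnnb1, Wif1, Frzb, Ccn4, Kremen1, Kremen2, Ror1 and Ror2. Of 60 such genes, 39 had 10 or more counts in at least 3 samples and are described here, out of 46603 genes in the files. They were 7 of 19 ligands, 3 of 4 R-spondins, 15 of 17 receptors, 7 of 12 antagonists and Dkk receptors, 6 of 7 intracellular genes and Ccn4. The 21 genes that missed the count rule were Wnt1, Wnt2, Wnt3, Wnt3a, Wnt5b, Wnt6, Wnt7a, Wnt8a, Wnt8b, Wnt9b, Wnt10a, Wnt16, Rspo4, Fzd10, Lgr5, Dkk1, Dkk4, Kremen2, Sfrp5, Wif1 and Axin2.

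Wnt proteins are secreted, lipid-modified ligands that bind frizzled receptors. With the coreceptors Lrp5 or Lrp6 they stop the destruction of β-catenin (Ctnnb1), which then acts in the nucleus with the TCF and LEF proteins, whereas with Ror1 or Ror2 they act without β-catenin. R-spondins strengthen the signal through Lgr4, Lgr5 and Lgr6, secreted frizzled-related proteins bind Wnt ligands, and several Dickkopf proteins bind Lrp5 and Lrp6. In preadipocytes, β-catenin signalling is known to hold back differentiation into adipocytes, and Wnt10b is the ligand best known for this.

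The cells were wild-type BALB/c MEFs from 10.5 day old embryos, grown in DMEM with 10% FBS. MEFD0 was sampled at day 0. MEFD3plu cells had received a mix of rosiglitazone (10 µM, a Pparg agonist), dexamethasone (1 µM, a glucocorticoid), insulin (10 µg/mL) and 3-isobutyl-1-methylxanthine (0.5 mM, a phosphodiesterase inhibitor) up to day 3. For MEFD5plu the mix was then replaced by growth medium until day 5. MEFD3min and MEFD5min were untreated cells of the same days. Each condition had 3 samples, numbered 1, 3 and 4, and nothing in the labels says whether these were separate cultures, so the p-values measure the spread between these samples. MEFs are a mixed population, and in such bulk RNA fewer cells of a type and less RNA per cell cannot be told apart.

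Promoter sequence is shown for 4 members that the results turn on, namely Fzd4, the gene with the largest change, Lgr4 and Lgr6, which moved in opposite directions, and Wnt11, the only one of the 23 members searched whose upstream bases held a TCF/LEF motif. The bases lie upstream of the RefSeq start on GRCm38.p6 and are written 5′ to 3′ on the gene's strand, with a motif match in capitals. Fzd4 covers chr7:89404116-89404354 (plus strand), Lgr4 covers chr2:109917397-109917646 (plus), Lgr6 covers chr1:135105277-135105526 (minus) and Wnt11 covers chr7:98834862-98835111 (plus).
Fzd4: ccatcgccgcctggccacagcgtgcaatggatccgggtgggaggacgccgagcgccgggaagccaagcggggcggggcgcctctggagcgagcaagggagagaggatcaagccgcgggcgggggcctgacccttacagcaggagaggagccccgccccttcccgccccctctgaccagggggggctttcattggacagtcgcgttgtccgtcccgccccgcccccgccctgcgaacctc
Lgr4: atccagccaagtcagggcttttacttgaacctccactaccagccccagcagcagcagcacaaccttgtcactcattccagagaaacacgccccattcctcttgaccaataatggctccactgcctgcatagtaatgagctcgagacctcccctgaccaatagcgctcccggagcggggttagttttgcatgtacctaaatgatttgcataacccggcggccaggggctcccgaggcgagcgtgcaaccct
Lgr6: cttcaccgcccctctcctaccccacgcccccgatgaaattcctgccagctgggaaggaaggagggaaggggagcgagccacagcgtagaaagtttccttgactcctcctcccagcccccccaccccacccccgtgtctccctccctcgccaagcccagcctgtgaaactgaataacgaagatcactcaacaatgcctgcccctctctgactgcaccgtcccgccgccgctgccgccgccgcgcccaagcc
Wnt11: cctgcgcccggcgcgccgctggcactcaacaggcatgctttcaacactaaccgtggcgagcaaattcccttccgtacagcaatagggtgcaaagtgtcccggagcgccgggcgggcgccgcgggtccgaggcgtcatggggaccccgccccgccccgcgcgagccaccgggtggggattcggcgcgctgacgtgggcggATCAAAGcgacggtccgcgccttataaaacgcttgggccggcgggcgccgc

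The motif in Wnt11 was ATCAAAG, the core bound by TCF/LEF proteins, starting 51 bases before the start site. On both strands of 250 upstream bases it was found in 3.21% of 32851 promoters and in 1 of the 30 promoters that matched 23 members, while 16 members had no promoter searched. The cAMP response element TGACGTCA was found in 1.55% of all promoters, the DR1 element bound by Pparg with its partner in 0.0335% and the palindromic glucocorticoid response element in 0.0304%, and none of these 3 motifs was found in those 30 promoters. GC content of the printed bases was 72.8% for Fzd4, 55.6% for Lgr4, 65.2% for Lgr6 and 70.8% for Wnt11. A match is a run of letters and no evidence that a factor binds there.

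Total counts per sample lay between 24030558 and 37281126, so that 1 CPM (counts scaled to library size) stood for 25.7 to 37.7 counts. CPM here are scaled by edgeR's TMM method, and levels of different genes are compared only as CPM per kilobase of exon. The fibroblast markers Col1a1, Col1a2, Col3a1, Pdgfra, Pdgfrb, Thy1, Vim and Fn1 summed to between 21890 and 33520 CPM in MEFD3min, to between 11780 and 13070 CPM in MEFD3plu and to between 10530 and 14420 CPM in the other 3 conditions. Their sum was thus lower in treated cells at day 3, as were Thy1 (-2.34 on the log2 scale), Fn1 (-2.06), Col1a1 (-1.82), Col1a2 (-1.60), Vim (-1.32) and Pdgfra (-0.63). Pdgfrb rose at day 3 by 0.34 (edgeR adjusted p = 0.0498), and Col3a1 was not called (-0.35, edgeR adjusted p = 0.051). At day 5 Col3a1 (0.67) and Pdgfra (0.27) rose, Fn1 (-1.43), Col1a1 (-0.79) and Col1a2 (-0.51) fell, and Pdgfrb, Thy1 and Vim were not called. The adipocyte markers Adipoq, Fabp4, Cidec, Plin1, Pparg, Lpl, Cebpa and Retn summed to between 42.2 and 65.2 CPM in all samples of MEFD0, MEFD3min and MEFD5min, to between 7553 and 9321 CPM in MEFD3plu and to between 9823 and 11640 CPM in MEFD5plu, so their level moved with every treatment difference given here. The part of either list in those differences was not tested. Macrophage, endothelial, epithelial, neural and muscle lists each summed to at most 11.7 CPM in any sample, with Adgre1, Krt5, Sox10 and Myod1 at 0. MEFD3min replicate 3 had the highest CPM of its condition for 27 of the 39 members. Without it the members called at day 3 were 30 in place of 32, and 56.6% of all genes were called in place of 56.1%.

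All 39 members entered the edgeR quasi-likelihood test over 15997 genes, where a gene with a Benjamini-Hochberg adjusted p under 0.05 was called. In MEFD3plu/MEFD3min 16 members rose and 16 fell, against 56.1% of all genes called (28% higher and 28% lower). The samples of both conditions did not overlap for 32 members, against 56.8% of all genes. The median member changed by -0.26 on the log2 scale, and the median of all genes by -0.0006. In MEFD5plu/MEFD5min 10 members rose and 12 fell, against 50.5% of all genes called (26.3% higher and 24.2% lower), with no overlap for 23 members against 62.1% of all genes. The median member changed there by -0.04 and the median gene by 0.01. The share of members called was thus 82.1% at day 3 and 56.4% at day 5. With a change of at least 2-fold required as well, 53.8% of the members were called at day 3, against 23.8% of all genes, and 33.3% at day 5, against 15.3%. Wnt4, Fzd9 and Sfrp4 met the count rule at day 3 only through the condition in which they were higher, as Wnt4 did at day 5, and had to differ there. Without them 14 members rose and 15 fell at day 3, and 9 rose and 12 fell at day 5. Scaled by total counts alone, the day 5 split of the members was 9 higher and 13 lower. Of all genes called at day 5, 37.0% were then higher, in place of 52.1%.

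**Figure D1:**
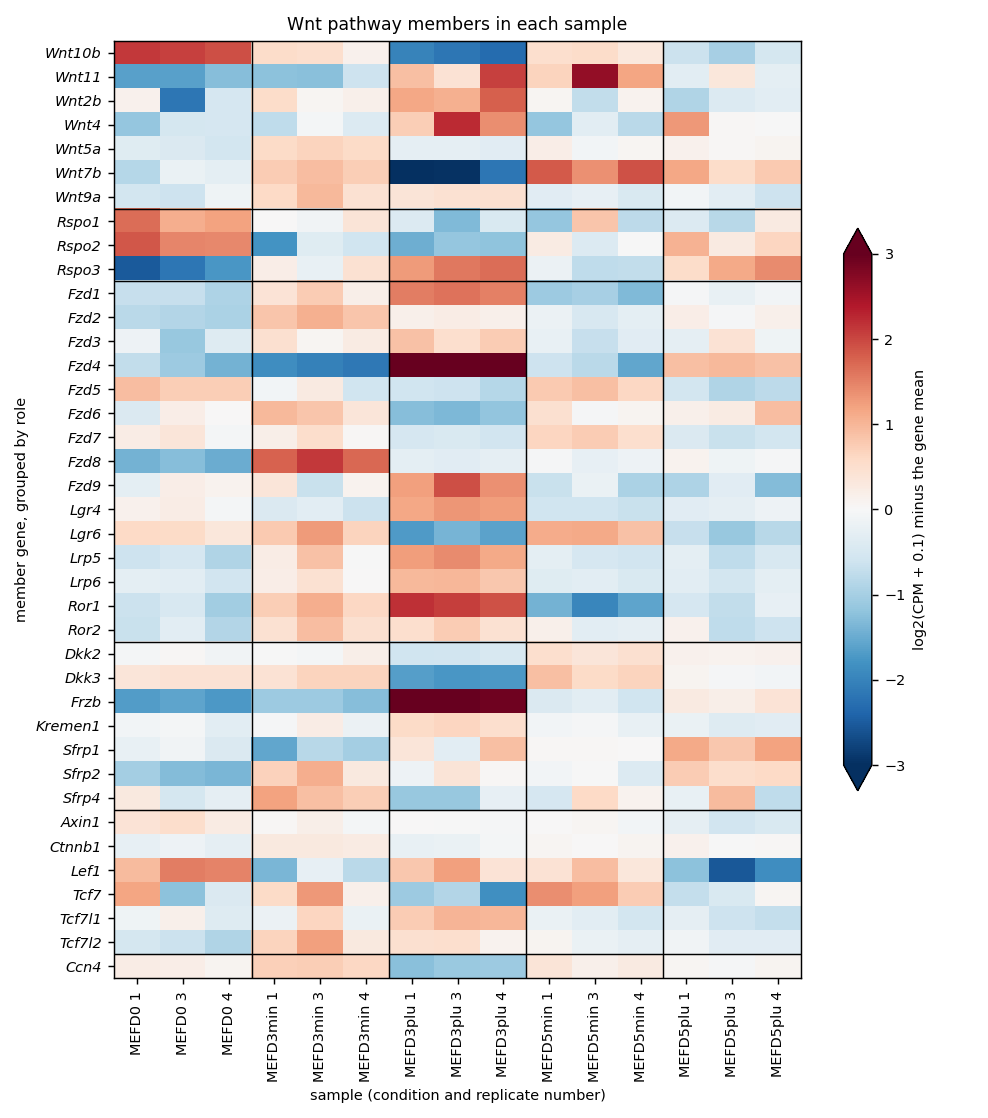
Heatmap of the 39 members (rows, grouped by role from ligands at the top to Ccn4 at the bottom) in the 15 samples (columns, 3 replicates per condition), as log2(CPM + 0.1) minus each gene's mean, with colours ending at 3 in either direction. Fzd4 and Frzb are dark red in the 3 MEFD3plu samples, Wnt10b is highest in MEFD0, and Fzd8 is highest in MEFD3min.

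Among the ligands, Wnt10b and Wnt7b fell at both days, Wnt5a fell at day 3, and Wnt2b and Wnt11 rose at day 3. Wnt4 met the count rule only through treated samples. Per kilobase of exon, Wnt5a, a ligand known mostly for signalling through Ror receptors, held 74.3% ± 0.93 (SD, n = 3) of the summed ligand level in MEFD0. The share was 89.7% ± 0.92 in MEFD3min against 90.8% ± 1.5 in MEFD3plu, and 83.2% ± 0.89 in MEFD5min against 90.1% ± 1.0 in MEFD5plu. Wnt10b held the next largest share in MEFD0, 20.9% ± 0.13, and 1.11% ± 0.12 in MEFD3plu.

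Wnt10b (ENSMUSG00000022996, chr15:98770712-98778150, minus strand, GRCm38) stood at 16.5, 15.8 and 14.7 CPM in MEFD0, at 5.58, 5.36 and 4.14 CPM in MEFD3min and at 0.853, 0.752 and 0.677 CPM in MEFD3plu. At day 5 it stood at 5.36, 5.53 and 4.70 CPM in MEFD5min and at 2.35, 1.84 and 2.56 CPM in MEFD5plu. Every treated sample lay below every untreated sample of its day, and MEFD0 lay above all others. The log2 fold change was -2.73 (SE 0.19, edgeR adjusted p = 1.27e-09) at day 3 and -1.20 (SE 0.16, edgeR adjusted p = 9.21e-06) at day 5. The fall at day 3 was the larger, with a difference between the days of -1.53 (SE 0.25, edgeR adjusted p = 8.36e-05).

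Wnt7b (ENSMUSG00000022382, chr15:85535437-85582473, minus strand), a ligand that acts through β-catenin in several tissues, stood at 1.82, 2.92 and 2.74 CPM in MEFD0 and at 5.83, 6.51 and 5.68 CPM in MEFD3min. It stood at 0.205, 0.345 and 0.677 CPM in MEFD3plu, at 12.4, 8.88 and 13.0 CPM in MEFD5min and at 7.66, 5.03 and 5.91 CPM in MEFD5plu. MEFD3plu lay below every other condition, and MEFD5min above every other. The log2 fold change was -3.83 (SE 0.31, edgeR adjusted p = 1.16e-08) at day 3 and -0.88 (SE 0.22, edgeR adjusted p = 0.00293) at day 5.

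Wnt5a (ENSMUSG00000021994, chr14:28504750-28527448, plus strand) stood at 136, 131 and 119 CPM in MEFD0, at 259, 276 and 263 CPM in MEFD3min and at 145, 146 and 137 CPM in MEFD3plu. It stood at 201, 165 and 183 CPM in MEFD5min and at 192, 178 and 186 CPM in MEFD5plu, and the day 5 conditions overlapped. It fell by 0.90 on the log2 scale at day 3 (SE 0.08, edgeR adjusted p = 5.26e-08) and was not called at day 5. The difference between the days was -0.92 (SE 0.11, edgeR adjusted p = 5.52e-06).

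Wnt11, Wnt4 and Wnt2b had few counts, and their values were singled out after they were seen. Wnt11 (ENSMUSG00000015957, chr7:98835112-98855195, plus strand), the gene with the TCF/LEF motif printed above, had 0, 0 and 1 counts in MEFD0, 1, 1 and 3 in MEFD3min and 14, 10 and 42 in MEFD3plu. It had 14, 47 and 22 counts in MEFD5min and 5, 9 and 5 in MEFD5plu. It was thus higher in the treated samples at day 3 and lower in them at day 5, with no overlap at either day. The ratio of MEFD3plu to MEFD3min was 13.3 (95% exact counting interval 5.41 to 42.2). At day 5 the log2 fold change was -2.20 (SE 0.66, edgeR adjusted p = 0.00988), and -1.32 without MEFD5min replicate 3 (edgeR adjusted p = 0.105). Exons of an opposite-strand gene, Gm8398, cover 8.80% of the Wnt11 exons.

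Wnt4 had 0, 2 and 2 counts in MEFD0, 1, 4 and 2 in MEFD3min and 8, 30 and 17 in MEFD3plu. It had 0, 2 and 1 counts in MEFD5min and 15, 4 and 4 in MEFD5plu. Its only samples with 10 or more counts were 2 of MEFD3plu and 1 of MEFD5plu, so its values are given without a test. Wnt2b rose by 1.21 at day 3 (SE 0.46, edgeR adjusted p = 0.0347), which was lost without MEFD3plu replicate 4 (edgeR adjusted p = 0.149), MEFD3min replicate 3 (0.0876) or MEFD3min replicate 4 (0.0725). Wnt9a lay between 1.30 and 4.10 CPM in all samples and was not called at either day.

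**Figure D2:**
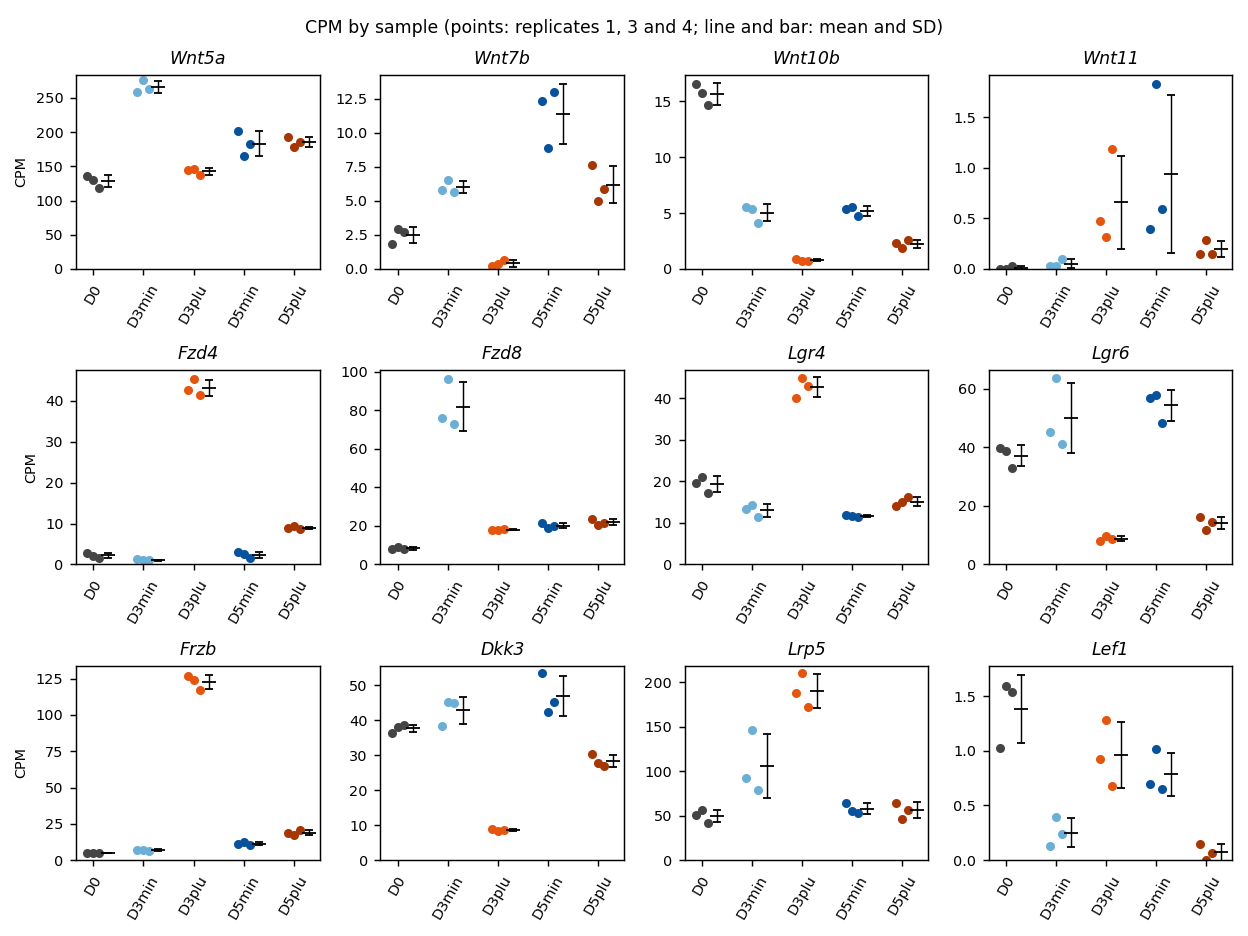
CPM of 12 members (one panel each, linear axis from 0) in the 5 conditions, with a point per replicate and the mean with its SD over 3 samples beside them. Fzd4 lies between 41.5 and 45.2 CPM in MEFD3plu and at or below 9.28 CPM in every other sample, and Lgr4 and Lgr6 move in opposite directions in MEFD3plu.

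Of the 3 R-spondins, Rspo3 rose at both days and Rspo1 and Rspo2 were not called at either. Rspo3 (ENSMUSG00000019880, chr10:29452416-29535867, minus strand) stood at 0.206, 0.292 and 0.419 CPM in MEFD0, at 1.91, 1.40 and 2.29 CPM in MEFD3min and at 4.13, 5.14 and 5.50 CPM in MEFD3plu. It stood at 1.45, 0.935 and 0.946 CPM in MEFD5min and at 2.47, 3.74 and 4.58 CPM in MEFD5plu. Treated samples lay above untreated ones at both days, with log2 fold changes of 1.40 (SE 0.26, edgeR adjusted p = 0.000211) and 1.68 (SE 0.28, edgeR adjusted p = 9.37e-05). Opposite-strand exons of Gm48159 cover 13.1% of the Rspo3 exons.

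Rspo2 was highest in MEFD0, at 4.32, 3.23 and 3.18 CPM, and fell by 2.56 on the log2 scale to MEFD3min (SE 0.34, edgeR adjusted p = 5.03e-06). It lay between 0.251 and 0.842 CPM in the day 3 samples, between 0.818 and 1.34 CPM in MEFD5min and between 1.35 and 2.41 CPM in MEFD5plu. Rspo1 had between 2 and 35 counts in a sample.

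The frizzled receptors changed in different directions. At day 3 Fzd1 and Fzd4 rose, Fzd2, Fzd5, Fzd6, Fzd7 and Fzd8 fell, Fzd3 was not called and Fzd9 met the count rule only through MEFD3plu. At day 5 Fzd1, Fzd2 and Fzd4 rose, Fzd5 and Fzd7 fell and the other 4 were not called. The summed frizzled level per kilobase was 41.3 ± 3.5 CPM (SD, n = 3) in MEFD0. At day 3 it was 92.7 ± 12.4 untreated and 70.8 ± 2.2 treated, and at day 5 55.1 ± 2.8 untreated and 51.2 ± 3.9 treated.

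Fzd4 (ENSMUSG00000049791, chr7:89404355-89413134, plus strand), a receptor for Wnt ligands and for Norrin, stood at 2.78, 2.15 and 1.67 CPM in MEFD0, at 1.22, 1.07 and 0.975 CPM in MEFD3min and at 42.5, 45.2 and 41.5 CPM in MEFD3plu. At day 5 it stood at 3.02, 2.61 and 1.51 CPM in MEFD5min and at 8.88, 9.28 and 8.71 CPM in MEFD5plu. Every treated sample lay above every untreated one, and MEFD3plu lay far above MEFD5plu. The log2 fold change was 5.30 (SE 0.21, edgeR adjusted p = 1.42e-12) at day 3 and 1.92 (SE 0.19, edgeR adjusted p = 3.48e-07) at day 5, with a difference of 3.38 (SE 0.29, edgeR adjusted p = 6.58e-08). It was the largest rise among the members at day 3.

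Fzd8 (ENSMUSG00000036904) was highest in untreated cells at day 3. It stood at 8.20, 9.15 and 7.82 CPM in MEFD0, at 75.8, 96.4 and 73.0 CPM in MEFD3min and at 18.0, 17.7 and 18.4 CPM in MEFD3plu. The day 5 samples overlapped, with 21.6, 18.9 and 19.9 CPM in MEFD5min and 23.8, 20.5 and 21.6 CPM in MEFD5plu. From MEFD0 to MEFD3min it rose by 3.28 on the log2 scale (SE 0.12, edgeR adjusted p = 6.45e-13), and MEFD3plu lay 2.18 below MEFD3min, a log2 fold change of -2.18 (SE 0.11, edgeR adjusted p = 2.37e-11).

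Per kilobase, Fzd2 and Fzd7 together held most of the frizzled level in MEFD0, with 34.7% ± 1.8 (SD, n = 3) and 39.1% ± 2.8. In MEFD3plu Fzd2 held 42.1% ± 0.54, Fzd1 27.4% ± 0.44, Fzd7 14.0% ± 0.20 and Fzd4 9.06% ± 0.12, whereas in MEFD3min Fzd1 held 9.74% ± 0.75 and Fzd4 0.177% ± 0.029. At day 5 Fzd7 held 40.0% ± 2.8 in untreated and 18.9% ± 0.42 in treated cells, and Fzd2 38.6% ± 3.7 and 55.6% ± 0.77. These shares describe mRNA and carry no test of their own.

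**Figure D3:**
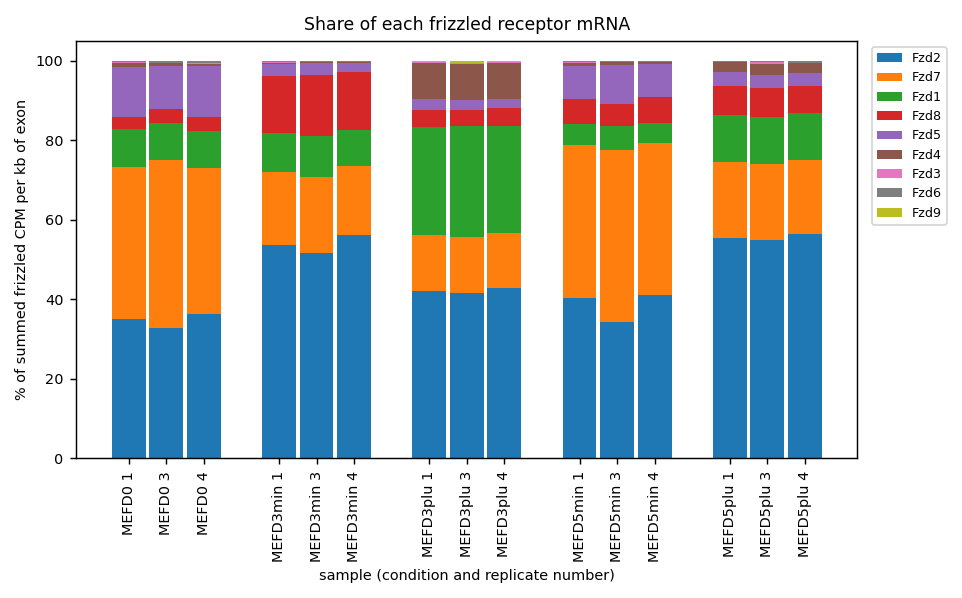
Share of each of the 9 frizzled receptors in the summed frizzled CPM per kilobase of exon (stacked bars from 0 to 100%, 1 bar per sample). Fzd1 (green) holds 27.1% to 27.9% in MEFD3plu and at most 11.9% in every other sample, and Fzd7 (orange) has its own largest shares in MEFD0 and MEFD5min.

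Fzd1 stood between 31.3 and 46.8 CPM in MEFD3min and between 78.7 and 85.7 CPM in MEFD3plu, and rose by 1.09 at day 3 (SE 0.12, edgeR adjusted p = 9.38e-07) and by 1.02 at day 5 (SE 0.13, edgeR adjusted p = 6.47e-06). Fzd7 fell by 0.78 and by 1.19 on the log2 scale at the same days (edgeR adjusted p = 4.26e-05 and 7.60e-07). Fzd2 fell by 0.74 at day 3 (edgeR adjusted p = 2.52e-06) and rose by 0.42 at day 5 (edgeR adjusted p = 0.00102), or by 0.26 scaled by total counts alone (edgeR adjusted p = 0.0321). Fzd5 fell by 0.59 at day 3 (edgeR adjusted p = 0.00637), with overlapping samples and a value of -0.36 without MEFD3min replicate 3, and by 1.52 at day 5 (edgeR adjusted p = 1.31e-06). Opposite-strand exons of Gm38058 cover 17.8% of the Fzd5 exons. Fzd6 fell by 2.44 at day 3 (edgeR adjusted p = 3.36e-05), from between 0.841 and 1.35 CPM to between 0.188 and 0.226 CPM. Fzd9 had 14, 27 and 19 counts in MEFD3plu and at most 7 in every other sample, and is given without a test because it met the count rule through MEFD3plu alone. Fzd3 lay between 0.583 and 2.63 CPM in all samples.

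The R-spondin receptors Lgr4 and Lgr6 moved in opposite directions. Lgr4 (ENSMUSG00000050199, chr2:109917647-110014257, plus strand) stood at 19.5, 21.1 and 17.3 CPM in MEFD0, at 13.3, 14.4 and 11.4 CPM in MEFD3min and at 40.2, 45.0 and 42.9 CPM in MEFD3plu. It stood at 11.8, 11.8 and 11.3 CPM in MEFD5min and at 14.1, 14.9 and 16.3 CPM in MEFD5plu. Treated samples lay above untreated ones at both days, by 1.71 on the log2 scale at day 3 (SE 0.10, edgeR adjusted p = 2.93e-10) and by 0.38 at day 5 (SE 0.10, edgeR adjusted p = 0.00639). Scaled by total counts alone the day 5 value was 0.21 (edgeR adjusted p = 0.124).

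Lgr6 (ENSMUSG00000042793, chr1:134983301-135105276, minus strand) stood at 39.7, 38.9 and 33.1 CPM in MEFD0, at 45.3, 63.7 and 41.3 CPM in MEFD3min and at 8.02, 9.84 and 8.57 CPM in MEFD3plu. It stood at 56.8, 58.1 and 48.3 CPM in MEFD5min and at 16.2, 11.9 and 14.6 CPM in MEFD5plu. Treated samples lay below all untreated and day 0 samples, with log2 fold changes of -2.51 (SE 0.16, edgeR adjusted p = 5.85e-10) and -1.93 (SE 0.15, edgeR adjusted p = 2.63e-08). Of the level per kilobase of both genes together, Lgr4 held 37.6% ± 1.1 (SD, n = 3) in MEFD0. At day 3 it held 23.6% ± 2.4 in untreated and 85.0% ± 0.69 in treated cells, and at day 5 20.0% ± 1.3 in untreated and 55.5% ± 4.6 in treated cells. Their summed level differed at day 3 by less than the SD of MEFD3min, with 9.53 ± 2.0 CPM per kilobase in MEFD3min and 8.54 ± 0.54 in MEFD3plu. At day 5 the sum was lower in treated cells, 4.64 ± 0.33 against 9.91 ± 0.82 in untreated ones, with no overlap between the samples.

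The coreceptors Lrp5 and Lrp6 rose at day 3 and overlapped between treated and untreated cells at day 5. Lrp5 stood at 51.1, 55.9 and 41.9 CPM in MEFD0, at 92.7, 146 and 78.5 CPM in MEFD3min and at 188, 211 and 173 CPM in MEFD3plu. It stood at 64.4, 55.7 and 53.3 CPM in MEFD5min and at 64.7, 46.7 and 56.8 CPM in MEFD5plu. Its log2 fold change at day 3 was 0.85 (SE 0.18, edgeR adjusted p = 0.000722). Lrp6 stood at 139, 136 and 114 CPM in MEFD0, at 196, 234 and 173 CPM in MEFD3min and at 333, 342 and 296 CPM in MEFD3plu. It lay between 124 and 136 CPM in MEFD5min and between 117 and 139 CPM in MEFD5plu, and its log2 fold change at day 3 was 0.69 (SE 0.11, edgeR adjusted p = 4.54e-05). The summed level of both was 25.6 ± 5.9 CPM per kilobase (SD, n = 3) in MEFD3min, 43.2 ± 3.6 in MEFD3plu and between 14.6 and 15.5 in the other 3 conditions.

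Ror1, a receptor of Wnt5a, rose by 1.24 at day 3 (SE 0.18, edgeR adjusted p = 1.21e-05) and by 1.22 at day 5 (SE 0.23, edgeR adjusted p = 0.000308). It lay between 11.6 and 14.2 CPM in MEFD3plu and between 1.77 and 2.53 CPM in MEFD5plu, against 4.71 to 6.54 CPM in MEFD3min and 0.701 to 1.06 CPM in MEFD5min. Ror2 lay between 1.79 and 6.43 CPM and was not called at either day.

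Among the antagonists, all 7 members were called at day 3, against 56.1% of all genes. Frzb, Sfrp1 and Kremen1 were higher and Dkk2, Dkk3, Sfrp2 and Sfrp4 lower. Of these, Sfrp4 had met the count rule through MEFD3min, where it was higher, and had to differ. The Sfrp2 samples overlapped, and its call was lost without some samples. At day 5 Frzb, Sfrp1 and Sfrp2 were higher and Dkk2 and Dkk3 lower, against 50.5% of all genes called. Frzb (ENSMUSG00000027004, chr2:80411970-80447625, minus strand), a secreted frizzled-related protein that binds Wnt ligands, stood at 4.77, 5.06 and 4.63 CPM in MEFD0, at 7.18, 7.13 and 6.29 CPM in MEFD3min and at 127, 124 and 117 CPM in MEFD3plu. It stood at 11.3, 12.3 and 10.1 CPM in MEFD5min and at 18.6, 17.4 and 20.5 CPM in MEFD5plu. Treated samples lay above untreated ones at both days, and MEFD3plu lay above every other sample. The log2 fold change was 4.16 (SE 0.10, edgeR adjusted p = 5.31e-15) at day 3 and 0.75 (SE 0.09, edgeR adjusted p = 4.81e-06) at day 5.

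Dkk3 (ENSMUSG00000030772, chr7:112116017-112159057, minus strand), a divergent Dickkopf protein, stood at 36.5, 38.1 and 38.5 CPM in MEFD0, at 38.5, 45.2 and 44.8 CPM in MEFD3min and at 8.90, 8.40 and 8.51 CPM in MEFD3plu. It stood at 53.4, 42.3 and 45.2 CPM in MEFD5min and at 30.2, 27.8 and 26.9 CPM in MEFD5plu. It fell by 2.32 on the log2 scale at day 3 (SE 0.10, edgeR adjusted p = 5.19e-12) and by 0.73 at day 5 (SE 0.09, edgeR adjusted p = 7.00e-06). Dkk2, which binds Lrp5 and Lrp6, lay between 294 and 348 CPM in MEFD3min, between 202 and 220.0 CPM in MEFD3plu, between 393 and 438 CPM in MEFD5min and between 329 and 336 CPM in MEFD5plu. It fell by 0.59 at day 3 (SE 0.08, edgeR adjusted p = 7.93e-06) and by 0.33 at day 5 (SE 0.08, edgeR adjusted p = 0.00246).

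Of the summed level per kilobase of the secreted antagonists, Dkk2 held between 81.5% and 85.3% in every condition but MEFD3plu. In MEFD3plu it held 56.6% ± 2.0 (SD, n = 3) and Frzb 38.0% ± 1.9, whereas Frzb held 2.05% ± 0.28 in MEFD3min. The sum itself was 104 ± 7.2 CPM per kilobase in MEFD3min and 99.9 ± 1.1 in MEFD3plu. At day 5 it was 133 ± 7.6 in untreated and 108 ± 1.8 in treated cells, and the samples did not overlap.

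Sfrp2 changed direction between the days. It stood at 2.61, 2.12 and 2.04 CPM in MEFD0, at 8.71, 11.7 and 6.66 CPM in MEFD3min and at 4.81, 7.05 and 5.55 CPM in MEFD3plu. It stood at 5.06, 5.37 and 4.03 CPM in MEFD5min and at 9.26, 7.80 and 8.17 CPM in MEFD5plu. The day 3 samples overlapped, and the log2 fold change of -0.64 (SE 0.19, edgeR adjusted p = 0.00956) became -0.40 without MEFD3min replicate 3 (edgeR adjusted p = 0.072) and -0.52 without MEFD3plu replicate 1 (edgeR adjusted p = 0.0523). At day 5 it rose by 0.81 (SE 0.20, edgeR adjusted p = 0.0024). Opposite-strand exons of Gm26771 cover 16.1% of the Sfrp2 exons.

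Sfrp1 lay at 0.309, 0.345 and 0.251 CPM in MEFD0, at 0.0627, 0.169 and 0.135 CPM in MEFD3min and at 0.512, 0.282 and 0.789 CPM in MEFD3plu. It lay at 0.391, 0.389 and 0.379 CPM in MEFD5min and at 0.953, 0.741 and 0.995 CPM in MEFD5plu. It rose by 2.08 at day 3 (SE 0.48, edgeR adjusted p = 0.00113) and by 1.21 at day 5 (SE 0.39, edgeR adjusted p = 0.0146), and the day 5 call was lost without MEFD5min replicate 4 (edgeR adjusted p = 0.0544) or MEFD5plu replicate 4 (0.0523). Kremen1, a Dkk receptor, rose by 0.56 at day 3 (SE 0.10, edgeR adjusted p = 0.00016) and was not called at day 5, where scaling by total counts alone gave -0.36 (edgeR adjusted p = 0.0155). Sfrp4 had 13, 11 and 8 counts in MEFD3min and 0, 0 and 3 counts in MEFD3plu. It met the count rule at day 3 through MEFD3min and had to differ there, so no ratio is given.

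The intracellular members include β-catenin, its scaffold Axin1 and the TCF/LEF transcription factors. Ctnnb1 had the highest level per kilobase of all members in every condition. It stood at 695, 739 and 682 CPM in MEFD0, at 1001, 1002 and 980 CPM in MEFD3min and at 702, 711 and 782 CPM in MEFD3plu. It stood at 858, 830 and 869 CPM in MEFD5min and at 898, 814 and 839 CPM in MEFD5plu, where treated and untreated samples overlapped. It fell by 0.44 at day 3 (SE 0.08, edgeR adjusted p = 9.28e-05). Opposite-strand exons of Ulk4 cover 14.6% of the Ctnnb1 exons. Axin1 lay between 45.9 and 53.9 CPM in all day 3 samples, between 45.6 and 49.8 CPM in MEFD5min and between 32.2 and 39.8 CPM in MEFD5plu, and fell by 0.43 at day 5 (SE 0.09, edgeR adjusted p = 0.00108).

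Lef1 (ENSMUSG00000027985, chr3:131110471-131224356, plus strand), itself known as a target of β-catenin, had 30, 60 and 55 counts in MEFD0, 4, 14 and 7 in MEFD3min and 27, 41 and 24 in MEFD3plu. It had 25, 26 and 24 counts in MEFD5min and 5, 0 and 2 in MEFD5plu. It was higher in treated cells at day 3 and lower at day 5, with no overlap at either day. The log2 fold change was 1.90 (SE 0.49, edgeR adjusted p = 0.00306) at day 3 and -3.38 (SE 0.62, edgeR adjusted p = 0.000197) at day 5, and the difference between the days was 5.27 (SE 0.79, edgeR adjusted p = 3.28e-05). Opposite-strand exons of Gm43352 cover 13.7% of the Lef1 exons.

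Tcf7 had 21, 2 and 6 counts in MEFD0, 14, 28 and 9 in MEFD3min, 2, 3 and 0 in MEFD3plu, 30, 19 and 19 in MEFD5min and 4, 5 and 9 in MEFD5plu. Treated samples lay below untreated ones at both days. The ratio of MEFD3min to MEFD3plu was 10.1 (95% exact counting interval 4.07 to 32.6), and the log2 fold change at day 5 was -1.90 (SE 0.70, edgeR adjusted p = 0.0305). The day 5 call was lost without either of MEFD5min replicates 1 (edgeR adjusted p = 0.089) and 3 (0.0652) or MEFD5plu replicates 1 (0.104) and 3 (0.089).

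Tcf7l1, mostly a repressor, stood at 15.5, 18.9 and 13.0 CPM in MEFD0, at 14.9, 26.6 and 14.9 CPM in MEFD3min and at 28.9, 34.3 and 33.8 CPM in MEFD3plu, and lay between 10.3 and 14.8 CPM at day 5. It rose by 0.78 at day 3 (SE 0.20, edgeR adjusted p = 0.00289). Tcf7l2 stood at 22.4, 20.4 and 17.1 CPM in MEFD0, at 50.8, 75.9 and 39.3 CPM in MEFD3min, at 44.8, 45.8 and 34.7 CPM in MEFD3plu, at 33.9, 28.1 and 26.5 CPM in MEFD5min and at 29.7, 25.3 and 25.5 CPM in MEFD5plu. Treated and untreated samples overlapped at both days and it was not called (edgeR adjusted p = 0.0684 at day 3), but with the replicate number as a block it fell by 0.39 at day 3 (edgeR adjusted p = 0.0186). Of the summed TCF/LEF level per kilobase, Lef1 and Tcf7 together held at most 4.97% in any condition, and Tcf7l1 and Tcf7l2 the rest.

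Ccn4 (ENSMUSG00000005124, chr15:66891320-66923201, plus strand), a secreted matrix protein also called Wisp1 and known to be induced by Wnt1, stood at 66.3, 65.4 and 60.8 CPM in MEFD0, at 93.4, 95.5 and 88.1 CPM in MEFD3min and at 24.0, 26.3 and 26.6 CPM in MEFD3plu. It stood at 74.9, 63.4 and 68.7 CPM in MEFD5min and at 59.0, 55.5 and 60.4 CPM in MEFD5plu. It fell by 1.85 on the log2 scale at day 3 (SE 0.08, edgeR adjusted p = 5.38e-12) and by 0.24 at day 5 (SE 0.08, edgeR adjusted p = 0.0163). The day 5 call was lost without MEFD5min replicate 1 (-0.18, edgeR adjusted p = 0.099) or MEFD5plu replicate 3 (-0.21, edgeR adjusted p = 0.0776), and with no filter on low counts (-0.24, edgeR adjusted p = 0.0763). Scaled by total counts alone the day 5 value was -0.40 (edgeR adjusted p = 0.000556).

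The treatment effect at day 3 was compared with that at day 5 through the treatment by day interaction, in which 24 members (61.5%) were called, against 48.5% of all genes. Among the 24, Wnt11 and Sfrp4 met the count rule only through the conditions that set the sign of their value. Of the 39 members, 8 were higher in treated cells at both days (Frzb, Fzd1, Fzd4, Lgr4, Ror1, Rspo3, Sfrp1 and Wnt4) and 9 were lower at both (Ccn4, Dkk2, Dkk3, Fzd5, Fzd7, Lgr6, Tcf7, Wnt10b and Wnt7b). Wnt4 met the count rule only through treated samples and had to be higher there, so its place among the 8 is no result. Lef1 and Wnt11 were higher at day 3 and lower at day 5, Fzd2 and Sfrp2 lower at day 3 and higher at day 5, and all 4 passed the interaction test. Another 11 were called at day 3 and not at day 5, of which 9 passed the interaction test and Fzd9 and Wnt2b did not. Of these 11, Fzd9 and Sfrp4 met the count rule at day 3 only through the condition in which they were higher, and had to differ there. Under the paired fit, which blocks on replicate number, both Wnt2b and Fzd7 passed the interaction test, Wnt2b at 1.62 (edgeR adjusted p = 0.049) and Fzd7 at 0.41 (edgeR adjusted p = 0.0202). Both also passed under DESeq2, Wnt2b at 1.73 (DESeq2 adjusted p = 0.0306) and Fzd7 at 0.44 (DESeq2 adjusted p = 0.0412). They passed as well with total counts alone, with no filter on low counts and with only the samples compared. Axin1 was called at day 5 and not at day 3, and 6 members were called at neither day. Over all genes 56.1% were called at day 3 and 50.5% at day 5. The share of all genes in each pair of day 3 and day 5 calls was not worked out. The counts by pair thus only list the members.

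**Figure D4:**
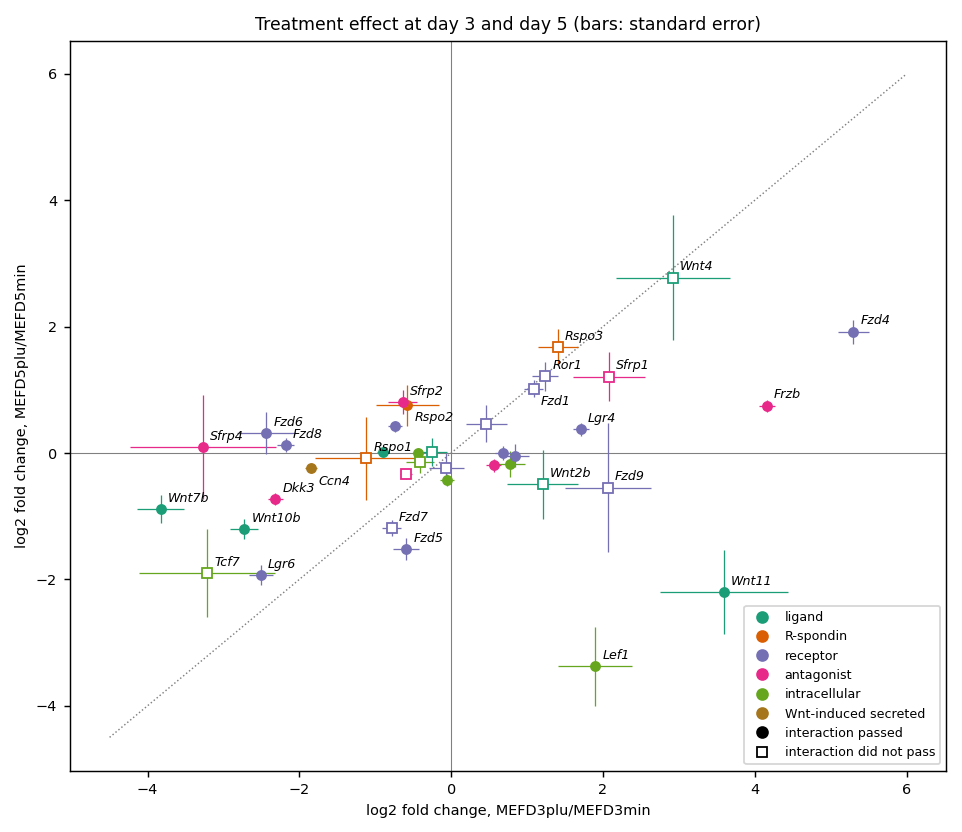
Log2 fold change of each of the 39 members at day 3 (horizontal axis) and day 5 (vertical axis), with standard errors as bars, roles as colours, filled circles for members past the interaction test, open squares for the others, and a dotted line where both days are equal. Fzd4 (5.30 and 1.92) and Frzb (4.16 and 0.75) lie far to the right and below the dotted line, and Lef1 (1.90 and -3.38) lies at the lower right.

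Untreated cells changed as well. From MEFD0 to MEFD3min 19 members rose and 9 fell, against 60% of all genes called (31.4% higher and 28.6% lower), and the samples did not overlap for 30 members, against 60.3% of all genes. From MEFD3min to MEFD5min 9 rose and 13 fell, against 42.8% of all genes called (21.3% higher and 21.5% lower), with no overlap for 24 members against 46.8% of all genes. From MEFD3plu to MEFD5plu 12 rose and 18 fell, against 63% of all genes called (33.8% higher and 29.2% lower), with no overlap for 31 members against 69.6% of all genes. Fzd9, among the 18, met the count rule through MEFD3plu alone, and 17 fell without it. These comparisons share samples with each other and with those above. Of the 15 receptors, 10 rose and 3 fell from MEFD0 to MEFD3min, against 31.4% of all genes higher and 28.6% lower. Fzd8 rose most, with Fzd2 rising by 1.80 on the log2 scale (SE 0.09, edgeR adjusted p = 4.16e-11) and Ror1 by 1.58 (SE 0.20, edgeR adjusted p = 2.17e-06). Among these 10, the calls of 3 were lost without some samples, Lgr6 without MEFD3min replicate 3 (0.22, edgeR adjusted p = 0.143), Fzd3 without MEFD0 replicate 3 (0.59, edgeR adjusted p = 0.101) and Fzd6 without MEFD0 replicate 1 (0.71, edgeR adjusted p = 0.109). Scaled by total counts alone, the split from MEFD3min to MEFD5min was 11 higher and 12 lower. Of all genes called there, 62.7% were then higher, in place of 49.7%. From MEFD3plu to MEFD5plu, after the mix had been removed, 9 receptors fell and 3 rose, against 29.2% of all genes lower and 33.8% higher. Fzd9, among the 9, met the count rule through MEFD3plu alone and had to fall. Fzd4 fell by 2.27 (SE 0.17, edgeR adjusted p = 5.53e-09), Ror1 by 2.59 (SE 0.19, edgeR adjusted p = 5.73e-09) and Lrp5 by 1.76 (SE 0.19, edgeR adjusted p = 4.27e-07). The calls of Fzd3 (lower) and Fzd8 (higher) were lost without MEFD5plu replicate 1, with edgeR adjusted p of 0.127 and 0.122. Frzb fell by 2.71 (SE 0.09, edgeR adjusted p = 1.17e-12) between the same conditions, while Wnt7b rose by 3.87 (SE 0.31, edgeR adjusted p = 1.34e-08).

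A list of 64 other genes of the pathway was set beside the members, of which 53 were tested. At day 3, 16 rose and 18 fell, 64.2% of those tested against 56.1% of all genes. At day 5, 5 rose and 22 fell, 50.9% against 50.5% of all genes, where 26.3% of all genes were higher and 24.2% lower. Among the 6 genes for Wnt secretion, release and the cell coat, Porcn, the enzyme that attaches the lipid to Wnt proteins, rose at day 3 by 2.01 (SE 0.17, edgeR adjusted p = 1.93e-08), from 4.69 ± 0.81 (SD, n = 3) to 18.9 ± 1.5 CPM. Wls, which carries Wnt proteins to the cell surface, fell by 0.60 at day 3 (edgeR adjusted p = 9.90e-05) and rose by 0.61 at day 5 (edgeR adjusted p = 0.00012). Of the 21 tested genes for Dishevelled, the destruction complex and its regulators, 6 rose and 7 fell at day 3 and 1 rose and 10 fell at day 5, among them Tnik, a kinase that works with TCF proteins, which fell by 1.75 (edgeR adjusted p = 1.37e-06) and by 1.15 (edgeR adjusted p = 0.000147). Of 11 nuclear cofactors, 3 rose and 3 fell at day 3. Tle1, a corepressor of TCF proteins, rose by 1.24 (edgeR adjusted p = 3.35e-08), Bcl9l, a β-catenin coactivator, by 1.35 (edgeR adjusted p = 4.87e-05), and Pygo2 rose too. Pygo1 fell by 1.21 (edgeR adjusted p = 5.34e-05), as did Aes and Tle4 by less.

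Of 14 genes known as targets of β-catenin, 9 were tested, Lef1 and Tcf7 among them. At day 3, 3 rose (Lef1, Myc and Notum) and 4 fell (Tcf7, Rnf43, Apcdd1 and Ccnd1), against 56.1% of all genes called. At day 5 none rose and 6 fell, against 26.3% of all genes higher and 24.2% lower. Several of these genes had few counts. Mean levels in MEFD3min and MEFD3plu were 0.262 and 0.0198 CPM for Rnf43, 0.0685 and 0.700 CPM for Notum and 0.509 and 0.0541 CPM for Tcf7. Axin2, the target most often used as a readout of the pathway, stood at 0.157 CPM on average in MEFD3plu and at 0.137 CPM in MEFD3min, and was too low to be tested. Ccnd1 fell by 1.07 at day 3 (SE 0.07, edgeR adjusted p = 8.38e-10) and by 0.61 at day 5 (SE 0.07, edgeR adjusted p = 1.95e-06). Myc rose by 1.56 at day 3 (SE 0.10, edgeR adjusted p = 1.05e-09) and fell by 0.83 at day 5 (SE 0.10, edgeR adjusted p = 4.34e-06). Many of these genes are also set by other pathways, so the list does not measure β-catenin activity.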

How the data were processed

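RNA-Seq libraries of 15 MEF samples (100 bp paired end reads) gave, per sample, a table of raw counts per Ensembl gene, which the authors deposited without normalization. The submitters' processing notes name TopHat2 2.1.0, HTSeq, DESeq2 and GRCm38 (mm10). The labels name an unstranded library kit and the paper a stranded one, and the strand setting of the counting is not given in the sources used here, so reads of overlapping antisense genes cannot be told apart. Identifiers were matched to GENCODE M21, where 46005 had a name and 598 had none. Genes formerly named Wisp2 and Wisp3 carry other symbols there and are no members.

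In R 4.3.3, edgeR 4.0.16 (filterByExpr, TMM, glmQLFit, glmQLFTest) fitted the 5 conditions over all 15 samples without covariates. Benjamini-Hochberg adjustment was made over 15997 genes. The standard error is the log2 fold change over the root of F. CPM per kilobase used the union of exons. Conditions whose samples all held 3 counts or fewer were treated as a floor. For Wnt11 and Tcf7 at day 3 the ratio of summed counts is given there. Its exact (Clopper-Pearson) interval, like the floor, covers counting error only. With 3 samples against 3 an exact test cannot go below p = 0.1, so p-values come from the model over all genes.

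The alternatives were DESeq2 1.42.0, its size factors in edgeR, total counts alone, no filter, at least 10 counts in every sample, only the samples compared, the replicate number as a block, a change of at least 2-fold and each sample left out. Replicates differed by more than sampling noise (chi-square over its degrees of freedom, 5.74 to 114). The replicate numbers 1, 3 and 4 come from the labels. Deviations from the condition means of same-numbered samples correlated across genes at 0.14, 0.23 and 0.36 between MEFD3plu and MEFD3min. The numbers were taken as pairs only in the alternative with the replicate block, and the main tests did not use the pairing. In every other comparison at least 1 same-numbered pair correlated below 0.1. Pairs of MEFD3min and MEFD0 still reached 0.13 (replicate 3) and 0.18 (replicate 4), and replicate 4 of MEFD5min and MEFD3min reached 0.15.

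The members and gene lists were chosen with earlier results of these data known. Members described by sample were, in each role, up to 4 called at day 3 or 5 with the largest change and a mean log2 CPM of at least 0, plus Ctnnb1, Lef1, Tcf7, Tcf7l2, Lrp5, Lrp6, Frzb, Wnt10b, Sfrp1 and Sfrp2. Promoters were taken from RefSeq. The steps were tested on simulated data with the same spread for every gene. Changes were set there only in genes above a minimum mean count. That test thus covers neither members with few counts nor the replicate spread seen here.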

Additional observations from a re-analysis of the deposited data

Results flagged for a closer look

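The treatment effect differed between day 3 and day 5 for 24 members, by the interaction term of the edgeR fit (adjusted p under 0.05). Each value below is the log2 fold change at day 3 minus that at day 5. The effect was more positive at day 3 for Wnt11 (5.79), Lef1 (5.27), Frzb (3.41), Fzd4 (3.38), Lgr4 (1.33), Tcf7l1 (0.95), Fzd5 (0.92), Lrp5 (0.89), Kremen1 (0.76), Lrp6 (0.69) and Axin1 (0.37). It was more negative at day 3 for Sfrp4 (-3.37), Wnt7b (-2.94), Fzd6 (-2.75), Fzd8 (-2.31), Ccn4 (-1.61), Dkk3 (-1.58), Wnt10b (-1.53), Sfrp2 (-1.45), Rspo2 (-1.34), Fzd2 (-1.16), Wnt5a (-0.92), Lgr6 (-0.57) and Ctnnb1 (-0.44). The values of Wnt11 and Sfrp4 rest on a condition with at most 3 counts per sample and depend on the prior count of the fit. Wnt11 met the count rule only through MEFD3plu and MEFD5min, which push its value up. Sfrp4 met it through 2 samples of MEFD3min and 1 of MEFD5plu, which push its value down. The signs of both were thus tied to the rule and are no result. The value of Sfrp4 was -2.15 without MEFD5plu replicate 3 and -6.54 without MEFD3plu replicate 4. Lgr6 was -0.36 without MEFD3min replicate 3 (edgeR adjusted p = 0.0939), and Rspo2 was -0.99 without it (edgeR adjusted p = 0.148). Scaled by total counts alone, Lgr6 was -0.40 (edgeR adjusted p = 0.175), Rspo2 was -1.16 (edgeR adjusted p = 0.076) and Ctnnb1 was -0.26 (edgeR adjusted p = 0.0429). With only the 4 conditions of the interaction fitted, Lgr6 was -0.53 (edgeR adjusted p = 0.061) and Rspo2 was -1.30 (edgeR adjusted p = 0.0706). Axin1 was 0.30 without MEFD5plu replicate 3 (edgeR adjusted p = 0.0876) and 0.35 with no filter on low counts (edgeR adjusted p = 0.0827).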

How the results depend on the processing

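Of 158 calls of a member in a comparison, 131 held in every alternative that tested them, 14 were lost in at least 1 alternative with all samples and 26 with a sample left out (27 in any), and none changed direction. With a change of at least 2-fold required, the members called were 21 in MEFD3plu/MEFD3min (53.8%, against 23.8% of all genes), 13 in MEFD5plu/MEFD5min (33.3%, 15.3%), 15 in the interaction (38.5%, 21.8%), 17 in MEFD3min/MEFD0 (43.6%, 25.4%), 9 in MEFD5min/MEFD3min (23.1%, 13.4%) and 18 in MEFD5plu/MEFD3plu (46.2%, 24.9%). With at least 10 counts in every sample, 26 members were tested and 21 called in MEFD3plu/MEFD3min, against 59.6% of all genes tested so. With a sample left out the members called ranged, in the same order, from 30 to 33, 19 to 23, 20 to 25, 25 to 29, 19 to 24 and 26 to 30. The share of all genes called ranged from 49.6% to 56.6%, 41.4% to 52.7%, 42.7% to 51.9%, 53.8% to 59.3%, 36.0% to 44.2% and 55.6% to 64.0%. With the replicate block, the paired fit called 33, 22, 26, 28, 24 and 30 members, and 59.1%, 53.8%, 51.9%, 62.6%, 46.4% and 65.1% of all genes. In MEFD3plu/MEFD3min it changed the call of Tcf7l2 alone. It added Wnt2b and Fzd7 in the interaction and Rspo3 and Tcf7l1 in MEFD5min/MEFD3min. Scaling by total counts alone moved the median of all genes by -0.16 in MEFD5plu/MEFD5min, by 0.18 in the interaction and by -0.12 in MEFD3min/MEFD0. The members then split into 13 higher and 11 lower in the interaction, in place of 11 and 13. Of all genes called in the interaction, 59.5% were then higher, in place of 46.7%. Where a call was lost the cause was not tested. Members with few counts (Wnt4, Wnt11, Sfrp4, Tcf7, Fzd9, Rspo1) have the widest errors, and those with 100 or more counts in every sample numbered 19.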
